A study of Saccharomyces cerevisiae with 12 samples.

Results

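The genes of the budding yeast proteasome were followed across 4 strains of Saccharomyces cerevisiae. They were chosen by name: every probe set whose gene symbol is PRE, PUP, RPN or RPT followed by a number, and those of SCL1, UMP1 and ECM29. The rule found 36 genes among the 5448 genes measured, each read by 1 probe set of its own. They comprise 14 subunits of the core particle, 18 of the regulatory particle, the assembly or tethering factors UMP1, RPN14 and ECM29, and RPN4, which is no subunit but the transcriptional activator of proteasome genes. The 12 Affymetrix Yeast 2.0 arrays came from 3 cultures of each strain. The bmh mutant (strain YLL1087, bmh1-170ts bmh2∆) lacks BMH2 and has only a temperature-sensitive form of BMH1, the pair of genes for the yeast 14-3-3 proteins. The hdac mutant (CTY-TY44, hda1∆ rpd3∆) lacks HDA1 and RPD3, which encode catalytic subunits of histone deacetylase complexes. The combined mutant (KBY3, bmh1-170ts bmh2∆ hda1∆ rpd3∆) has all 4 alterations, and the wild type was strain W303-CH1A. All strains have the W303-1A background. All cells were harvested during exponential growth in YP medium with 5% glucose at 30 °C. Each genotype was 1 strain, so any other difference between the strains cannot be told apart from the listed mutations.

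The proteasome degrades proteins that carry ubiquitin chains. Its core particle is a barrel of alpha rings, which gate the entrance, around beta rings, which hold the proteolytic sites. The regulatory particle caps the barrel: its base contains the Rpt ATPases that unfold substrates, and its lid contains Rpn11, which removes the ubiquitin chain. In yeast, Rpn4 binds a shared promoter element of these genes and is itself a very short-lived substrate of the proteasome, which makes a feedback loop between proteasome activity and proteasome gene transcription.

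Deleted genes were checked on every array. BMH2 lay between 3.77 and 4.13 on the 6 arrays of strains that lack it and between 11.47 and 11.81 on the other 6, HDA1 between 3.68 and 3.85 against 8.15 to 8.38, and RPD3 between 3.76 and 4.10 against 9.51 to 9.76. All levels are RMA signals on a log2 scale, so a difference of 1 is a 2-fold change. Array medians lay between 8.81 and 8.85, and 3 arrays per strain limit the precision. Because the arrays were scaled to 1 distribution, a value is relative to the other messages of the culture, and fewer cells with a message or less of it per cell cannot be told apart. Wild-type array 1 stood apart from the other wild-type arrays: 61 genes on it were 2-fold or more away from the average of arrays 2 and 3, and for those arrays the same count was 5 and 6 genes. Calls of the proteasome genes that change without it are given beside the comparison.

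With all arrays, few proteasome genes differed in the bmh mutant from the wild type. In the hdac mutant more of them were lower than over all genes, and in the combined mutant about the same share was. A gene was called changed at an adjusted p under 0.05 in limma (Benjamini-Hochberg over all 5448 genes). In bmh cells 2 of 36 members rose, RPT2 and RPN14, and 0 fell in limma (0 also at an unadjusted p under 0.05), whereas 14.8% of all genes rose and 17.2% fell. This count depended on wild-type array 1. Without it 8 members rose (22.2%) and 1 fell (2.8%), beside 20.4% and 22.8% of all genes. In hdac cells 20 members (55.6%) fell and 1, ECM29, rose, against 41.6% and 29.8% of all genes. In the combined mutant 17 members (47.2%) fell and ECM29 rose, against 45.2% and 30.4% of all genes, so the share that fell was close to that of the table. Without wild-type array 1, 19 members fell in hdac cells (44.3% of all genes), PRE3 being lost, and 18 in the combined mutant (47.3% of all genes), RPN4 being added; ECM29 rose in both (32.8% and 32.7% of all genes). Wild-type array 2 also changed calls: without it PRE10, RPN2 and RPN13 also passed as lower in hdac cells, and PRE5, RPN6, RPN8, RPN13 and RPT1 in the combined mutant. The median difference of the 36 members was 0.04 in bmh cells, −0.21 in hdac cells and −0.23 in the combined mutant, beside −0.01, −0.09 and −0.13 over all genes. Falls were small: among the subunits the largest were −0.89 in PUP2 in hdac cells and −0.75 in RPN11 in the combined mutant, which are 1.85-fold and 1.69-fold.

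**Figure D1:**
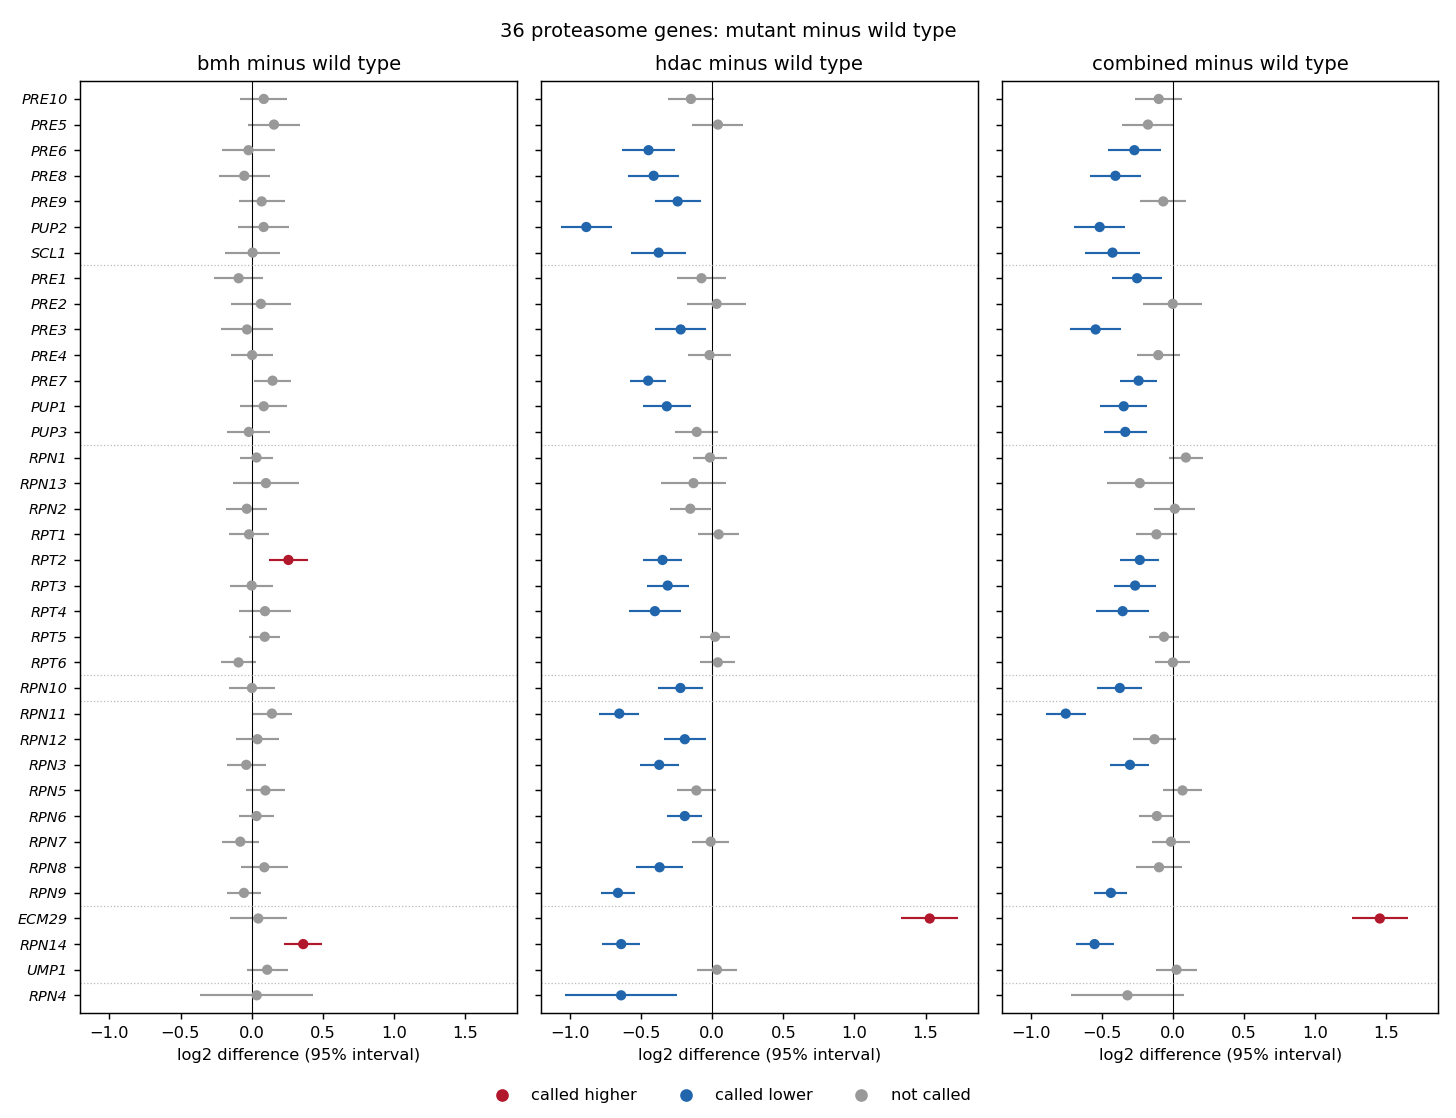
Log2 difference of each of the 36 proteasome genes between a mutant and the wild type, with its 95% interval from the fit (n = 3 arrays per strain); dotted lines separate, from the top, the alpha ring, the beta ring, the base, RPN10, the lid, the assembly or tethering genes and RPN4. The bmh panel holds 2 called genes, and the hdac and combined panels hold 20 and 17 genes called lower and ECM29 as the only one called higher.

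RPN4, the activator, was lowest in hdac cells and was the member least reproducible in the wild type. It measured 10.44, 10.38 and 10.23 on the bmh arrays, 9.78, 9.65 and 9.59 on the hdac arrays, 9.88, 9.99 and 10.11 on the combined arrays, and 9.75, 10.57 and 10.62 on the wild-type arrays. On wild-type array 1 it was 0.85 below the average of arrays 2 and 3, within the range of the hdac mutant, so the hdac and wild-type groups overlapped on that array alone. RPN4 fell in hdac cells by 0.64 ± 0.18 (SE, n = 3 per strain; adjusted p = 0.0072), and by 0.92 ± 0.08 without wild-type array 1 (adjusted p = 4.89e-07). In the combined mutant the difference of −0.32 ± 0.18 from the wild type did not pass (adjusted p = 0.128). It was −0.60 ± 0.08 without wild-type array 1 and then passed (adjusted p = 2.26e-05). In bmh cells the difference was 0.04 (95% interval −0.36 to 0.43; adjusted p = 0.897) with all arrays and −0.25 ± 0.08 (adjusted p = 0.0325) without that array, a change of direction. Among the mutants themselves the groups did not overlap: every combined array lay above every hdac array and below every bmh array. The difference was 0.32 ± 0.18 between combined and hdac (adjusted p = 0.188) and −0.36 ± 0.18 between combined and bmh (adjusted p = 0.0946). Without wild-type array 1, which enters these comparisons through the shared estimate of the spread, both passed (adjusted p = 0.00353 and 7.62e-04).

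**Figure D2:**
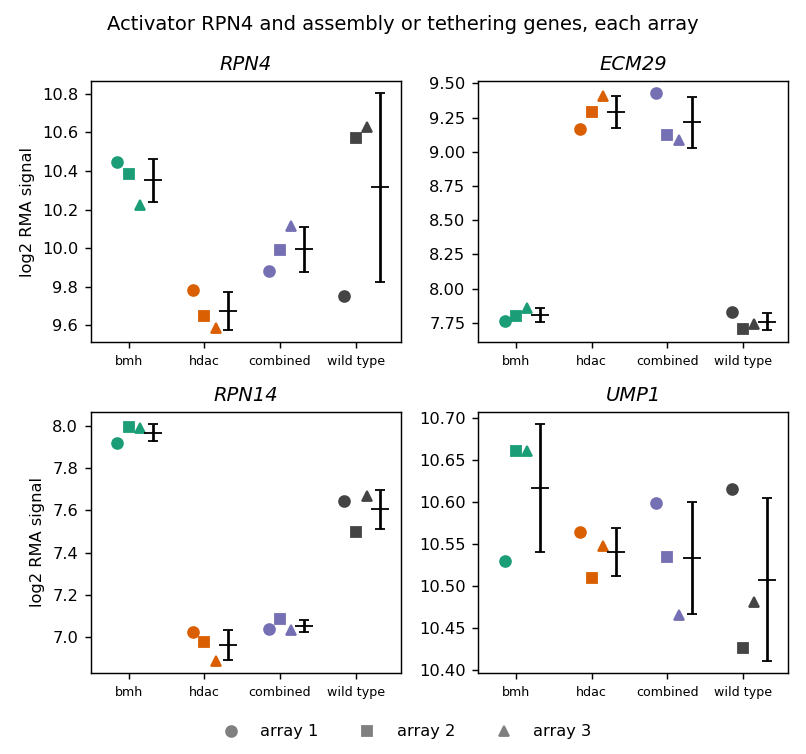
Log2 RMA signal of RPN4, ECM29, RPN14 and UMP1 on each of the 12 arrays (symbols mark the array number, black bars the mean ± SD of 3 arrays). RPN4 on wild-type array 1 sits at 9.75, next to the hdac arrays; ECM29 is higher and RPN14 lower on all 6 arrays without HDA1 and RPD3, and UMP1 overlaps between all strains.

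Of the 7 alpha-ring genes, 5 fell in hdac cells and 4 in the combined mutant (41.6% and 45.2% of all genes). PUP2, which encodes the alpha5 subunit, changed most. It measured 10.15, 10.11 and 9.98 in hdac cells, 10.34, 10.50 and 10.52 in the combined mutant and 11.03, 11.16 and 10.97 in bmh cells, against 11.08, 10.84 and 10.98 in the wild type. The 3 levels were thus distinct: hdac lowest, combined between, and bmh overlapping with the wild type. The difference from the wild type was −0.89 ± 0.08 in hdac cells (adjusted p = 1.18e-06) and −0.51 ± 0.08 in the combined mutant (adjusted p = 1.00e-04). PRE6 (alpha4) measured 11.60, 11.75 and 11.50 in hdac cells and 11.73, 11.80 and 11.85 in the combined mutant, against 12.21, 11.89 and 12.09 in the wild type. Both mutants lay below all wild-type arrays, by 0.45 ± 0.09 (adjusted p = 5.04e-04) and 0.27 ± 0.09 (adjusted p = 0.0123). PRE8 (alpha2) and SCL1 (alpha1) fell by 0.41 and 0.38 in hdac cells and by 0.40 and 0.42 in the combined mutant. PRE9 (alpha3) fell by 0.24 in hdac cells and stood at −0.07 in the combined mutant without passing. The difference of 0.18 between these mutants did not pass with all arrays (adjusted p = 0.0833) and passed without wild-type array 1 (adjusted p = 0.0276). PRE10 (alpha7) at −0.15 and −0.10 passed in neither. PRE5 (alpha6) measured 10.61, 10.68 and 10.56 in bmh cells, 10.42, 10.60 and 10.47 in hdac cells and 10.27, 10.30 and 10.28 in the combined mutant, against 10.65, 10.31 and 10.42 in the wild type. With all arrays none of its differences from the wild type passed (0.16, 0.04 and −0.18). Wild-type array 1 was as high as the bmh arrays and the other wild-type arrays were not. Without that array the bmh difference was 0.25 and passed (adjusted p = 0.00721).

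In the beta ring 3 of 7 genes fell in hdac cells and 5 in the combined mutant, beside the same 41.6% and 45.2% of all genes. The 3 proteolytic subunits differed. PRE3 (beta1, the caspase-like site) measured 10.94, 11.01 and 11.00 in hdac cells, 10.58, 10.76 and 10.64 in the combined mutant and 11.13, 11.22 and 11.17 in bmh cells, against 11.41, 11.13 and 11.08 in the wild type. The combined mutant was the lowest strain, without overlap with any other. PRE3 fell there by 0.54 ± 0.08 (adjusted p = 6.95e-05), and in hdac cells by 0.22 ± 0.08 (adjusted p = 0.0295), a call that ended without wild-type array 1 (−0.12, adjusted p = 0.0891) or without any single hdac array. PUP1 (beta2, the trypsin-like site) fell by 0.32 and 0.35 in the hdac and combined mutants. PRE2 (beta5, the chymotrypsin-like site) differed little: against the wild type it stood at 0.07, 0.03 and 0.00 in the bmh, hdac and combined mutants, none passing, with 95% intervals that stayed within −0.21 and 0.27. PRE7 (beta6) measured 10.55, 10.68 and 10.56 in bmh cells, 10.04, 10.02 and 9.93 in hdac cells and 10.22, 10.18 and 10.22 in the combined mutant, against 10.51, 10.38 and 10.45 in the wild type. None of these 4 groups overlapped with another for PRE7. The falls of 0.45 ± 0.06 (adjusted p = 2.18e-05) and 0.24 ± 0.06 (adjusted p = 0.00244) passed in the hdac and combined mutants. The bmh difference of 0.15 did not pass with all arrays (adjusted p = 0.0749). Without wild-type array 1 it was 0.18 and passed (adjusted p = 0.0266). PUP3 (beta3) and PRE1 (beta4) fell in the combined mutant, by 0.33 and 0.25 (PRE1 by 0.17 without wild-type array 1), and stood at −0.11 and −0.08 in hdac cells without passing. PRE4 (beta7) at −0.02 and −0.10 passed in neither.

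In the base of the regulatory particle 3 of 9 genes (33.3%) fell in both the hdac and the combined mutant, a smaller share than the 41.6% and 45.2% of all genes. They were the same 3 genes: RPT2, RPT3 and RPT4, which encode subunits of the ATPase ring. RPT4 fell by 0.40 and 0.35 and RPT3 by 0.31 and 0.27 in the hdac and combined mutants. RPT2 measured 10.81, 10.80 and 10.73 in bmh cells, 10.14, 10.25 and 10.13 in hdac cells and 10.22, 10.39 and 10.27 in the combined mutant, against 10.59, 10.48 and 10.50 in the wild type. It was therefore above all wild-type arrays in bmh cells and below all of them in the others. The rise was 0.26 ± 0.06 (adjusted p = 0.00829), and the falls were 0.35 ± 0.06 (adjusted p = 3.32e-04) and 0.23 ± 0.06 (adjusted p = 0.00514). The other ATPase genes, RPT1, RPT5 and RPT6, lay between −0.12 and 0.09 in all 3 mutants and none passed. The scaffold genes RPN1 and RPN2 and the ubiquitin receptor gene RPN13 did not pass either with all arrays. RPN13 turned on single wild-type arrays. It stood at −0.13 in hdac cells and −0.23 in the combined mutant with all arrays, and at −0.01 and −0.11 without array 1, on which it was 0.37 above the others. Without array 2 it passed, at −0.24 (adjusted p = 0.0476) and −0.34 (adjusted p = 0.00849).

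The lid had the largest falls in the regulatory particle. Of its 8 genes 6 fell in hdac cells and 3 in the combined mutant, 75.0% and 37.5% beside 41.6% and 45.2% of all genes. RPN11, the deubiquitinase gene, measured 10.34, 10.27 and 10.26 in bmh cells, 9.39, 9.58 and 9.51 in hdac cells and 9.47, 9.35 and 9.36 in the combined mutant, against 10.15, 10.09 and 10.21 in the wild type. All 6 arrays of strains without the deacetylases lay below all the others. The falls were 0.65 ± 0.06 (adjusted p = 2.06e-06) and 0.75 ± 0.06 (adjusted p = 4.34e-07). RPN9, a scaffold subunit of the lid, measured 10.63, 10.66 and 10.66 in bmh cells, 10.10, 9.99 and 10.04 in hdac cells and 10.21, 10.31 and 10.28 in the combined mutant, against 10.72, 10.66 and 10.74 in the wild type. It fell by 0.66 ± 0.05 (adjusted p = 3.51e-07) and 0.44 ± 0.05 (adjusted p = 1.09e-05), with hdac below combined on every array. RPN3 fell by 0.37 and 0.30. RPN8, which pairs with RPN11, measured 10.60, 10.66 and 10.54 in bmh cells, 10.16, 10.20 and 10.07 in hdac cells and 10.42, 10.45 and 10.38 in the combined mutant, against 10.65, 10.35 and 10.54 in the wild type. It fell in hdac cells by 0.37 ± 0.08 (adjusted p = 7.81e-04) and did not pass in the combined mutant (−0.10), whose arrays lay inside the wild-type range; without wild-type array 2 it did pass there (−0.18, adjusted p = 0.0305). RPN6 and RPN12 each fell by 0.19 in hdac cells, and RPN12 lost this call without hdac array 2 or wild-type array 3 (highest adjusted p = 0.105). RPN5 and RPN7 passed in no mutant. RPN10, a ubiquitin receptor placed between base and lid, fell by 0.22 in hdac cells (0.14 without wild-type array 1), which ended without hdac array 3 (adjusted p = 0.0606), and by 0.37 in the combined mutant.

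**Figure D3:**
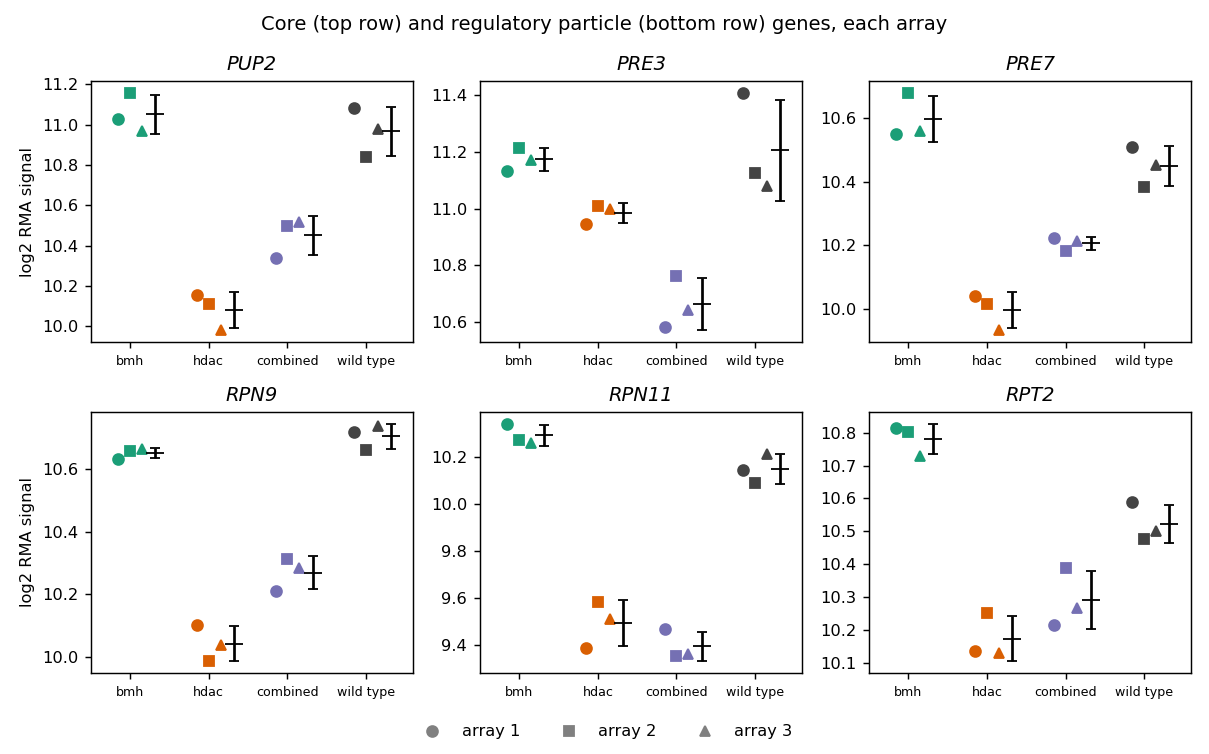
Log2 RMA signal on each array (symbols mark the array number, black bars the mean ± SD of 3 arrays) for 3 core genes and 3 regulatory particle genes. RPN11 and RPT2 are lower on all 6 arrays without the deacetylases; PUP2, PRE7 and RPN9 are lower in hdac cells than in combined-mutant cells, and PRE3 is lowest in the combined mutant.

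ECM29 moved against the subunits. Its product tethers core and regulatory particles and binds faulty proteasomes. It measured 9.17, 9.29 and 9.40 in hdac cells, 9.43, 9.12 and 9.09 in the combined mutant and 7.76, 7.80 and 7.86 in bmh cells, against 7.83, 7.70 and 7.74 in the wild type. The arrays formed 2 separate levels according to the deacetylase genes. The rises were 1.53 ± 0.09 in hdac cells (2.89-fold; adjusted p = 2.50e-08) and 1.46 ± 0.09 in the combined mutant (2.74-fold; adjusted p = 2.56e-08). ECM29 was the only member that differed by at least 2-fold from the wild type. RPN14, a chaperone for the assembly of the base, measured 7.92, 7.99 and 7.99 in bmh cells, 7.02, 6.98 and 6.89 in hdac cells and 7.04, 7.09 and 7.03 in the combined mutant, against 7.64, 7.50 and 7.67 in the wild type. It was above the wild type in bmh cells by 0.36 ± 0.06 (adjusted p = 8.19e-04) and below it in the hdac and combined mutants by 0.64 ± 0.06 (adjusted p = 1.62e-06) and 0.55 ± 0.06 (adjusted p = 4.72e-06). UMP1, the chaperone that matures the core particle and is degraded by it, measured 10.53, 10.66 and 10.66 in bmh cells, 10.57, 10.51 and 10.55 in hdac cells and 10.60, 10.54 and 10.47 in the combined mutant, against 10.62, 10.43 and 10.48 in the wild type. All strains overlapped, and with all arrays no difference from the wild type passed; the largest was 0.11 in bmh cells (95% interval −0.03 to 0.25).

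Core and regulatory particle genes were set side by side. In hdac cells 8 of 14 core genes and 10 of 18 regulatory genes fell (57.1% and 55.6%, beside 41.6% of all genes), with median differences of −0.23 and −0.19. In the combined mutant 9 of 14 and 7 of 18 fell (64.3% and 38.9%, beside 45.2% of all genes), with medians of −0.26 and −0.12, beside −0.13 for all genes. The difference between the particles was not tested, since the genes share their arrays. Within the particles the lid (median −0.28) and the alpha ring (−0.38) lay lower in hdac cells than the base (−0.13) and the beta ring (−0.11). In the combined mutant the order differed, at −0.12 for the lid, −0.27 for the alpha ring, −0.12 for the base and −0.25 for the beta ring. Wild-type array 1 bears on this comparison. All 14 core genes were higher on it than on arrays 2 and 3, and 0.09 to 0.31 above their average (median 0.25). Of the 18 regulatory genes 10 were higher on it than on both, with a median over the 18 of 0.08. Over all genes 44.5% were higher on it than on both others. Without wild-type array 1 the medians in hdac cells were −0.15 for core and −0.16 for regulatory genes, and −0.28, −0.04, −0.01 and −0.24 for the alpha ring, beta ring, base and lid. In the combined mutant they were −0.205 for core and −0.10 for regulatory genes, and −0.20, −0.21, −0.06 and −0.10 for the alpha ring, beta ring, base and lid. Only medians close to each other changed order without this array. In hdac cells the alpha ring and lid stayed below the base and beta ring. In the combined mutant both rings stayed below the base and lid.

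RPN4 and the subunit genes were set beside each other array by array, each as a difference from its own mean over the 12 arrays. In hdac cells RPN4 stood at −0.30, −0.43 and −0.50 and the core medians at −0.19, −0.04 and −0.17. In bmh cells RPN4 stood at 0.36, 0.30 and 0.14 and the core medians at 0.15, 0.21 and 0.11. In the combined mutant RPN4 stood at −0.20, −0.09 and 0.03 and the core medians at −0.18, −0.14 and −0.12. Both measures were thus above 0 on all bmh arrays and below 0 on all hdac arrays. The median of all genes had the same signs, at 0.04 to 0.06 on the bmh arrays and −0.04 to −0.02 on the hdac arrays. The wild-type arrays did not share this order: RPN4 stood at −0.33, 0.48 and 0.54 and the core medians at 0.26, 0.01 and 0.09, so array 1 had the lowest RPN4 and the highest core median of the 3.

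**Figure D4:**
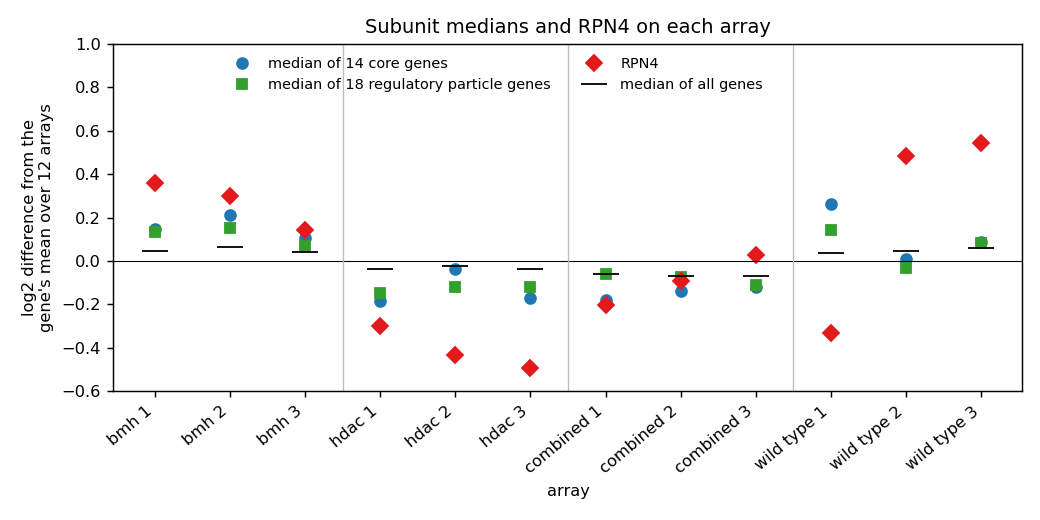
For each array, the median over the 14 core genes and over the 18 regulatory particle genes of the log2 difference from each gene's mean over the 12 arrays, with RPN4 and the median of all genes on the same scale. RPN4, both medians and the median of all genes are above 0 on the 3 bmh arrays and below 0 on the 3 hdac arrays, and on wild-type array 1 RPN4 is at −0.33 while the core median is at 0.26.

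Without wild-type array 1, more members differed in bmh cells, and so did more of all genes. Then 8 of 36 members (22.2%) rose, RPT2, RPN14, PRE5, PRE7, PRE10, PUP1, RPN13 and UMP1, and 1 (2.8%) fell, RPN4. Over all genes 20.4% rose and 22.8% fell, beside 14.8% and 17.2% with all arrays. The share of members that rose was thus close to that of the table. The values of the members that rose are given next. The differences of the 6 subunit genes among them lay between 0.17 and 0.29, and that of UMP1 was 0.16 (adjusted p = 0.0453). With all arrays only RPT2 and RPN14 of these passed, and both kept their call when any 1 array was left out.

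The combined mutant was compared with the bmh mutant, from which it differs by the deletions of HDA1 and RPD3. Here 23 of 36 members (63.9%) fell and ECM29 rose, against 45.0% and 30.1% of all genes. The falls comprised 10 core genes, 12 regulatory genes and RPN14. The largest were in RPN14 (−0.91 ± 0.06, adjusted p = 6.44e-08), RPN11 (−0.90 ± 0.06, adjusted p = 1.13e-07), PUP2 (−0.60 ± 0.08), PRE3 (−0.51 ± 0.08) and RPT2 (−0.49 ± 0.06). ECM29 rose by 1.41 ± 0.09 (adjusted p = 4.75e-08). Of the 20 genes that fell in hdac cells relative to the wild type, 18 also fell here (90.0%, beside 85.0% of all genes that fell in hdac cells). The differences of these comparisons share no arrays, but their calls share the estimate of the spread and so are not independent. The exceptions were RPN4 and PRE9, at −0.36 and −0.14, which passed without wild-type array 1 (adjusted p = 7.62e-04 and 0.0490). PRE1 passed then too (−0.16, adjusted p = 0.0232), and 26 members were lower and ECM29 higher, against 48.1% and 32.4% of all genes. With all arrays, PRE5, PRE10, PUP3, RPN13 and RPT5 fell in this comparison and did not pass in hdac cells against the wild type. Calls of 7 of the 23 genes ended when 1 array was left out: PRE6, PRE10, RPN6, RPN8, RPN12, RPN13 and RPT5, with highest adjusted p-values from 0.0607 in RPT5 to 0.151 in RPN12. With the replicate number as a block PRE10 (adjusted p = 0.0567), RPN6 (0.0509) and RPN8 (0.0528) did not pass. Same-numbered bmh and combined arrays correlated only weakly in their deviations (0.100 to 0.135), so they are not shown to be pairs.

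Against the hdac mutant, the combined mutant differed at 7 members, 5 higher (13.9%) and 2 lower (5.6%), beside 17.5% and 18.9% of all genes. PUP2 (0.37 ± 0.08, adjusted p = 0.00394), RPN8 (0.27 ± 0.08, adjusted p = 0.0139), RPN9 (0.23 ± 0.05, adjusted p = 0.00575), PRE7 (0.21 ± 0.06, adjusted p = 0.0147) and RPN5 (0.18 ± 0.06, adjusted p = 0.0395) were higher. PRE3 (−0.32 ± 0.08, adjusted p = 0.00951) and PUP3 (−0.23 ± 0.07, adjusted p = 0.0231), both of the beta ring, were lower. The calls of PUP2, RPN9 and PRE3 held when any 1 array was left out. Those of PRE7, PUP3, RPN5 and RPN8 did not, with highest adjusted p-values of 0.0646, 0.0850, 0.132 and 0.0592. Without wild-type array 1, 8 members were higher, RPN4, PRE9 and RPN2 being added, and 6 lower, PRE1, PRE5, RPN10 and RPT1 being added, against 24.1% and 26.7% of all genes.

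**Figure D5:**
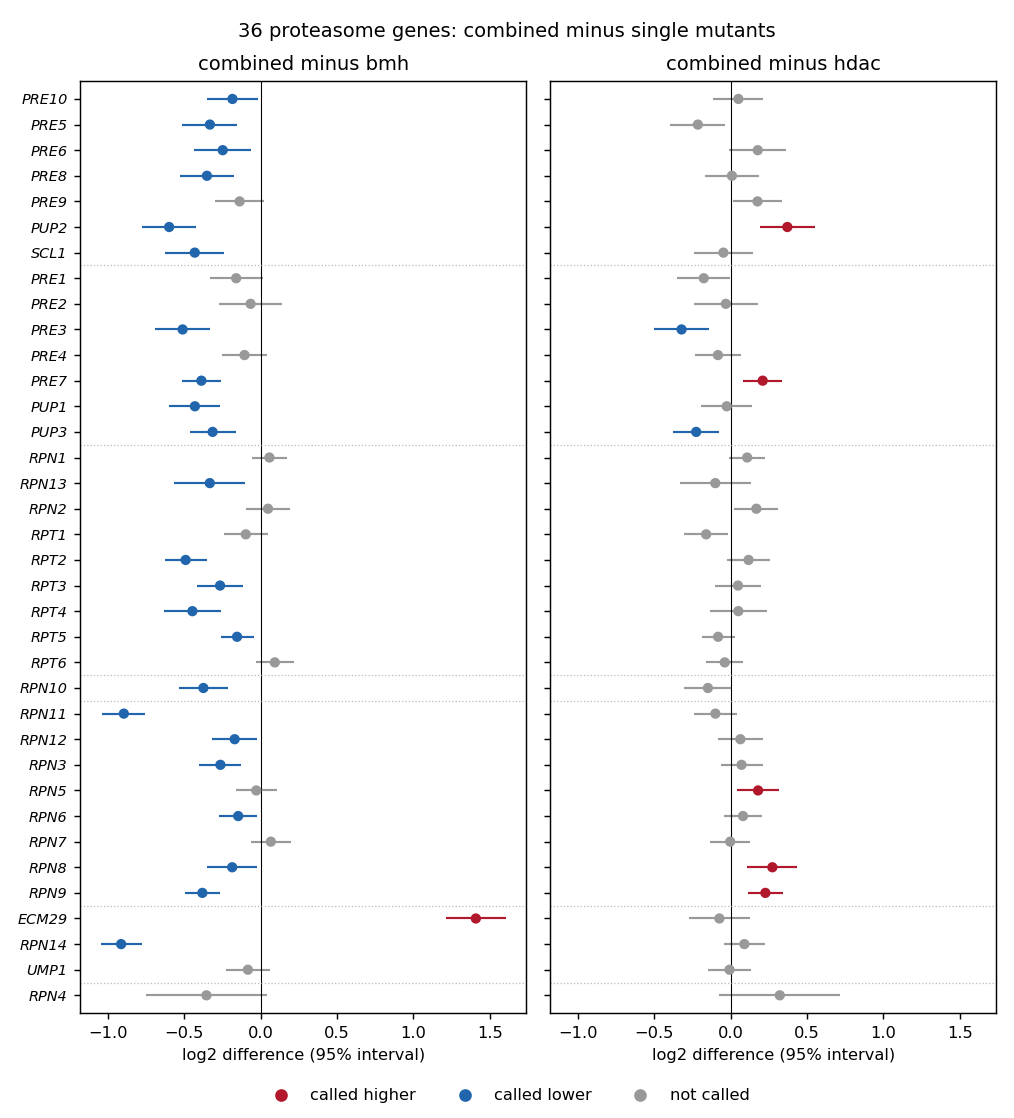
Log2 difference of each of the 36 genes between the combined mutant and each single mutant, with its 95% interval from the fit (n = 3 arrays per strain), in the same order of genes from alpha ring to RPN4. Against bmh 23 genes are called lower and ECM29 higher; against hdac 5 are called higher and 2 lower.

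The interaction is the effect of the bmh mutations in cells without the deacetylases less their effect in cells with them. It passed at 3 members, 1 positive (2.8%) and 2 negative (5.6%), beside 12.3% and 11.3% of all genes. RPN9 was positive at 0.28 ± 0.08 (adjusted p = 0.0175), with a bmh effect of 0.23 in cells without the deacetylases and −0.05 in cells with them. PRE5 (−0.37 ± 0.12, adjusted p = 0.0367) and RPN14 (−0.27 ± 0.09, adjusted p = 0.0391) were negative. All 3 calls ended for at least 1 left-out array: RPN9 without combined array 2 (adjusted p = 0.0513), PRE5 without any 1 of 9 arrays and RPN14 without any 1 of 8 (highest adjusted p = 0.0916 and 0.0954). Without wild-type array 1 the same 3 passed and PRE3, PUP1, PUP3, RPN10 and RPN13 were added as negative and RPN4 as positive, 2 positive and 7 negative in all, against 17.8% and 18.2% of all genes. RPN4 then had an interaction of 0.57 ± 0.11 (adjusted p = 0.00192), compared with 0.29 ± 0.26 (adjusted p = 0.469) on all arrays.

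Across the 6 comparisons with all arrays, 8 members were called in none, and the share of all genes called in none was not computed. They were the core genes PRE2 and PRE4, the base genes RPN1, RPN2, RPT1 and RPT6, the lid gene RPN7 and UMP1. Conversely, 15 members (41.7%, beside 33.4% of all genes) were lower in the hdac and combined mutants against the wild type and in the combined mutant against bmh: PRE3, PRE6, PRE7, PRE8, PUP1, PUP2, SCL1, RPN3, RPN9, RPN10, RPN11, RPT2, RPT3, RPT4 and RPN14.

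Other genes that build or bind the proteasome did not move as one block. Of 15 such genes, 6 rose and 7 fell in hdac cells, 5 and 7 in the combined mutant, and 2 and 2 in bmh cells (4 and 2 without wild-type array 1). The falls were 46.7%, 46.7% and 13.3% of the list, near the 41.6%, 45.2% and 17.2% of all genes. For the rises, the shares of all genes were 29.8%, 30.4% and 14.8% in the hdac, combined and bmh mutants. Without wild-type array 1, 20.4% of all genes rose and 22.8% fell in bmh cells. TMA17, a stress-induced chaperone for base assembly, measured 8.79, 8.94 and 8.76 in bmh cells, 9.85, 10.03 and 9.78 in hdac cells and 10.60, 10.66 and 10.61 in the combined mutant, against 7.98, 7.95 and 8.12 in the wild type. Its 4 strains did not overlap, and its rises were 0.81 ± 0.08, 1.87 ± 0.08 and 2.61 ± 0.08 (adjusted p = 8.03e-06, 8.76e-10 and 3.23e-11). Of the other chaperones of the base, NAS6 rose in hdac cells by 0.76 and also rose in the combined mutant. HSM3 fell in bmh cells by 0.39 and also fell in the other mutants. Its means were 7.355, 7.429 and 7.187 in the bmh, hdac and combined mutants, against 7.742 in the wild type. NAS2 fell in the combined mutant by 1.33 and also fell in hdac cells. NAS2 was 1.08 lower in the combined mutant than in hdac cells, and its fall of 0.22 in bmh cells ended without bmh array 1 (adjusted p = 0.0600). Genes for core assembly differed from each other. PBA1 fell by 0.54 in hdac cells and 0.65 in the combined mutant, and IRC25 by 0.35 and 0.49 (0.20 and 0.33 without wild-type array 1). ADD66 rose by 0.40 in hdac cells and stood at 0.06 in the combined mutant without passing, which was 0.35 lower than in hdac cells (adjusted p = 0.0043). BLM10, an alternative cap of the core, rose by 0.68 in the combined mutant and also rose in hdac cells. HUL5, a ubiquitin ligase that sits on the proteasome, rose by 0.66 in hdac cells and also rose in the combined mutant. FUB1, a relative of the mammalian proteasome regulator PI31, rose by 1.76 in hdac cells and stood at −1.47 in the combined mutant against hdac. SEM1, a lid subunit outside the naming rule that was singled out after its values were seen, fell by 0.45 in hdac cells and by 0.26 in the combined mutant (0.33 and 0.13 without wild-type array 1, both passing).

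In the ubiquitin and Cdc48 system, which marks, extracts and delivers substrates, 13 of 28 genes rose and 8 fell in hdac cells and 13 and 10 in the combined mutant. In bmh cells 4 rose and 3 fell. Over all genes the shares were 29.8% and 41.6%, 30.4% and 45.2%, and 14.8% and 17.2%. The median difference of this list was −0.03, 0.02 and 0.07 in the bmh, hdac and combined mutants. UBC5, a stress-induced ubiquitin-conjugating enzyme, rose by 2.03 ± 0.10 in hdac cells (adjusted p = 6.11e-09) and by 2.06 ± 0.10 in the combined mutant. UBI4, the polyubiquitin gene, rose by 0.51, 1.89 and 1.86 in the bmh, hdac and combined mutants. Both have close relatives in sequence, UBC4 and the other ubiquitin genes, so the probe sets may not separate the copies fully. OTU1, a deubiquitinase of Cdc48, fell by 0.59, 1.67 and 1.29 in the 3 mutants. RAD23, a shuttle that brings ubiquitinated proteins to the proteasome, fell by 1.11 in hdac cells. Its mean in the combined mutant was 10.22, against 11.07 in the wild type. UBR1, the N-end rule ligase, fell by 0.73 in bmh cells and was 0.71 lower in the combined mutant than in hdac cells. TMC1, a zinc-finger protein gene, rose by 0.65 in bmh cells and also rose in the hdac and combined mutants. Its means there were 10.33 and 10.76, against 9.82 in the wild type.

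Genes listed as regulators of Rpn4 or its gene were also read. None of 7 passed in bmh cells in limma, where PDR3 and HSF1 had an unadjusted p under 0.05 (2 genes, both negative). MUB1 stood at −0.21 with all arrays and passed there without wild-type array 1 (−0.43, adjusted p = 4.90e-05). In hdac cells 4 fell and 1 rose, and in the combined mutant 4 fell and 3 rose; over all genes 41.6% and 45.2% fell and 29.8% and 30.4% rose. REB1 (−0.56 in hdac, −0.87 in combined), a general promoter-binding factor, and PDR3 (−0.50 and −0.68), a drug resistance factor that activates RPN4, fell in both. HSF1, the heat shock factor, fell by 0.42 in hdac cells and also fell in the combined mutant. MUB1 and UBR2 encode a ligase that destroys Rpn4. UBR2 rose by 0.45 in the combined mutant, in which MUB1 fell by 0.46, and UBR2 also rose in hdac cells. In hdac cells MUB1 was at −0.38, a call that ended without hdac array 2 or 3 or wild-type array 2 or 3 (highest adjusted p = 0.105) and stood at −0.60 without wild-type array 1.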

How the data were processed

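The deposited table holds log2 signal intensities of 5715 probe sets on 12 arrays. The authors obtained them by RMA with affy, per the submitters' processing notes, which give no versions; that the logarithm is to base 2 was taken from the RMA method and from the range of values, 3.39 to 14.87. The values were used without another normalization. Samples were grouped by their genotype label. The source names exchange 2 strain names between the hdac and combined samples, and the deleted genes had low signals where the genotypes name them. Of the probe sets 5497 had 1 symbol and 218 none; the brightest of several was kept per gene (49 dropped). Members had 1 probe set each, none of the shared classes. Differences were fitted with limma 3.58.1 (R 4.3.3): a means model of 4 strains on 12 arrays, eBayes with 8 residual and 3.82 prior degrees of freedom, Benjamini-Hochberg over 5448 genes. The fit was tested on simulated data. Replicates are cultures of 1 strain, so p-values rest on the spread between these cultures, which the fit pooled over the 4 strains. That spread was unequal. The median SD over all genes was 0.1355 in the wild type. It was 0.0654, 0.0681 and 0.0673 in the bmh, hdac and combined mutants. The pooled standard errors do not show this difference. Same-numbered bmh and combined arrays correlated at 0.100 to 0.135 in their deviations and differently numbered ones at −0.106 to −0.0306. Differently numbered combined and wild-type arrays reached 0.192, so these values do not show that arrays were paired. The reported fit used no pairs. Replicate numbers entered only as a block in an alternative fit, and the labels do not say what a number marks. Members, lists and roles were chosen with earlier results of these data known. Every member is named. Array values are given for RPN4, UMP1, RPN14, ECM29 and the 2 core and 2 regulatory genes with the largest difference in each pairwise comparison. Those of PRE6 and TMA17 were added outside this rule. Of each other list, up to 4 called genes per comparison are named, and SEM1 was added. Alternatives are described after the results.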

Additional observations from a re-analysis of the deposited data

Results flagged for a closer look

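The interaction in limma (adjusted over all 5448 genes) was positive at 12.3% and negative at 11.3% of all genes. It passed at 8.3% of the 36 proteasome genes and 20.0% of the other proteasome genes. In the ubiquitin and Cdc48 list it passed at 10.7%, and among the regulators of Rpn4 at 14.3%. For these 10 genes the effect of the bmh mutations in cells without HDA1 and RPD3 differed from that in cells with them. Among the proteasome genes these were RPN9 (0.28, adjusted p = 0.0175), PRE5 (−0.37, adjusted p = 0.0367) and RPN14 (−0.27, adjusted p = 0.0391), with the dependence on single arrays given above. Of the other proteasome genes, FUB1 had −1.30 (adjusted p = 7.67e-05), NAS2 −0.86 (adjusted p = 1.19e-05) and HUL5 −0.32 (adjusted p = 0.0148). In the ubiquitin and Cdc48 list, OTU1 had 0.97 (adjusted p = 1.07e-04), UBI4 −0.53 (adjusted p = 0.00862) and RAD23 0.39 (adjusted p = 0.00485). The calls of these 6 genes held without any 1 array. HSF1 had 0.38 (adjusted p = 0.027), which ended without bmh array 1, hdac array 2 or combined array 2 or 3 (highest adjusted p = 0.0723).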

How the results depend on the processing

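The counts of members called stayed within 1.5 times of the reported ones in 114 of 131 repeats, RPN4 kept its direction and side of the threshold in 118 of 131, and no called member reversed. Quantile normalization, median centring, another empirical Bayes setting and the handling of probe sets changed none of these. The effect of single arrays, wild-type array 1 foremost, was the main limit, and the cause of its difference was not tested. With array weights the members called numbered 12 in bmh against wild type, 18 in combined against hdac and 14 in the interaction. RPN4 then stood at −0.19 in bmh against wild type, a reversed sign (adjusted p = 0.104), and passed at −0.56 in combined against wild type, −0.36 against bmh, 0.32 against hdac and 0.52 in the interaction. A fit to only the compared groups called 14 members in combined against hdac, and RPN4 passed at 0.32 there and at −0.36 against bmh. Shares of all genes called were computed only for the main fit and without wild-type array 1. The counts of members under the other settings are therefore not set against the whole table. Leaving out dim genes left 1 member called in bmh against wild type, and an adjusted p under 0.01 left 3 in combined against hdac and 0 in the interaction. The replicate block left RPN9 as 1 interaction call (PRE5 0.0608, RPN14 0.0706) and 6 of 7 calls in combined against hdac (RPN5 0.0684). It changed no count against the wild type. The labels' numbers are not shown to pair in any comparison. With 1 array left out, the members called ranged from 2 to 9 in bmh, 19 to 24 in hdac and 18 to 23 in combined against wild type. They ranged from 18 to 27 in combined against bmh, 4 to 14 in combined against hdac and 0 to 9 in the interaction. RPN4 ranged from −0.25 (without wild-type array 1) to 0.19 in bmh, being −0.01 without bmh array 1. It ranged from −0.92 to −0.49 in hdac and −0.60 to −0.16 in combined against wild type, −0.42 to −0.30 in combined against bmh, 0.26 to 0.38 in combined against hdac and 0.13 to 0.57 in the interaction.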
